A study of Mus musculus with 2 samples.

Results

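The Ifi200 family (PYHIN family) of mouse genes encodes proteins that pair a pyrin domain, which joins them to other proteins, with a HIN domain, which binds double-stranded DNA. Its best known member, Aim2, senses DNA in the cytosol and assembles with the adaptor Pycard (ASC) and caspase-1 into an inflammasome that matures Il1b and Il18 and opens the membrane through Gsdmd. Ifi204, the mouse relative of human IFI16, is linked instead to the STING pathway and type I interferon, and Ifi205 is known as a regulator of Pycard expression in macrophages. Many genes of the family are themselves induced by interferon. 9 of its genes, Ifi203, Ifi204, Ifi205, Ifi207, Ifi209, Ifi211, Ifi213, Mndal and Aim2, were taken by symbol from the 32285 genes of the count matrices, by a rule that uses no measured value.

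The counts came from cells of mouse pancreatic tumors in 2 droplet libraries, 1 per treatment. Each was prepared from 3 pooled mice, taken 48 h after PBS or cmExoaCD11b was given. cmExoaCD11b is an exosome from mouse embryonic fibroblasts that is loaded with cGAMP, which activates STING, carries IL-12 mRNA and bears an anti-CD11b antibody on its surface, so that the treated mice received a cyclic dinucleotide, a cytokine mRNA and an antibody at once. The in vivo experiments of the study used male C57BL/6J mice of 5 to 6 weeks with K210 tumor cells, a mouse pancreatic tumor line, placed in the pancreas, and 5 µg of cGAMP per mouse and dose. With 1 pooled library per treatment there was no replicate spread and no test between treatments. Values are UMIs (unique molecular identifiers, 1 per captured mRNA) of a gene in a class of cells, scaled to all UMIs of the class as counts per 1e6 (CPM), with exact Poisson 95% intervals, and ratios are those of cmExoaCD11b to PBS with exact conditional 95% intervals. All intervals cover counting error only.

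In the RefSeq annotation, 13 coding genes of the family, the 9 studied and Ifi202b, Ifi206, Ifi208 and Ifi214, lay side by side on chromosome 1 with 0 other coding genes between them. Because the members share ancestry and many answer to interferon, the promoter table of RefSeq (GRCm38.p6, 250 bases before to 50 after a start site) was searched on both strands for GAAANNGAAA, the letters of an interferon-response element. Of the 9 genes, all but Ifi204 were in the table, and the 6 below held the letters on the strand of the gene, at 35 to 134 bases before a start site. The stretches of 60 bases show the match in capitals and let the members be compared.

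Ifi203 (the second start site listed), chr1:173942493-173942552, minus strand: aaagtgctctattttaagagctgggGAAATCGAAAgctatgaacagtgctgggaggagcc
Mndal, chr1:173880189-173880248, minus strand: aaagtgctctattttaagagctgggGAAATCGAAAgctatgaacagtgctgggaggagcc
Ifi205, chr1:174031855-174031914, minus strand: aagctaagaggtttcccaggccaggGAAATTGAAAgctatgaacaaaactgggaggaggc
Ifi207, chr1:173741816-173741875, minus strand: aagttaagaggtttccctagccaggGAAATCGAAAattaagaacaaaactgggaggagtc
Ifi211, chr1:173913049-173913108, minus strand: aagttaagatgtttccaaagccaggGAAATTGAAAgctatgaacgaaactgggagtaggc
Ifi213, chr1:173599311-173599370, minus strand: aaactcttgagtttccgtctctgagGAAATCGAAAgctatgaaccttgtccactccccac

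The stretches of Ifi203 and Mndal were identical over all 60 bases. Those of Ifi205, Ifi207 and Ifi211 shared 83.3% to 90% of bases with each other and 65.0% to 68.3% with Ifi203 and Mndal, and that of Ifi213 shared 48.3% to 56.7% with the rest. No stretch of 10 bases with these letters was found in the windows of Aim2 and Ifi209, whose closest stretch differed in 1 of the 8 fixed letters. The window of the first start site listed for Ifi203 held none either, and its closest stretch differed in 2 letters. The second start site listed for Mndal had a match on the opposite strand. Of all 32851 windows in the table, 3.44% held a match and 35.4% came within 1 letter of it, so the near-match of Aim2 and Ifi209 is a common one. The letters describe sequence, not a binding site.

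Likeness at the other end of the genes bears on the counts where reads come from 3' ends, as was assumed here. A read that fits several genes is not counted. Of 90-base windows in the last 500 bases of annotated transcripts, 59.4% of those of Ifi205 and of Ifi211 also occurred in another gene (each other or Mndal), as did 58.6% of those of Ifi209 (Ifi214), 7.54% of those of Ifi213 (Ifi206 and Ifi208) and 4.25% of those of Mndal. Ifi203, Ifi204, Ifi207 and Aim2 shared 0 windows. On that assumption the levels of Ifi205, Ifi211 and Ifi209 are uncertain relative to the other members, while their comparison between the libraries rests on the same counting in both. The windows came from spliced transcripts, so reads from introns were not covered for any member.

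Cells numbered 6817 in PBS and 7049 in cmExoaCD11b after filtering, with medians of 3471 and 4126 UMIs per cell, and 16 barcodes occurred in both libraries. Each cell was assigned to a class when at least 2 of 8 marker genes of that class, and more than of any other, stood above the level that free RNA would give, and the class names below stand for cells gated in this way. T cells were divided into CD8 T cells, CD4 T cells and, where neither or both coreceptors were detected, other T cells. The 12 classes with at least 30 cells in both libraries were compared. They ran from mature neutrophils, with 3489 PBS and 3291 cmExoaCD11b cells, to NK cells, with 30 and 114, and dendritic cells, with 31 and 58. 1239 PBS and 922 cmExoaCD11b cells had no class. Of the markers checked but not used for gating, Cd68, C1qc, H2-Aa, Gzma, Bank1, Igha and Elf3 were each highest in the class they mark, whereas Itgam, Lyz2 and Csf1r, checked for monocytes, were higher in neutrophils or macrophages. S100a9, checked for mature neutrophils, was higher in immature ones in PBS (82126 against 122478 CPM), and Skap1, checked for T cells, was lower in 1 of the T cell classes than in NK cells in cmExoaCD11b (1031 against 1088 CPM).

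Over all kept cells, the 9 genes together stood at 308 CPM in PBS (interval 303 to 313) and 559.9 CPM in cmExoaCD11b (554 to 566), a ratio of 1.82 (1.78 to 1.85). The classes differed far more than this. The family was most abundant in dendritic cells, monocytes, T cells and macrophages, at up to 2625 CPM in cmExoaCD11b dendritic cells, and least in immature neutrophils, at 24.2 and 56.3 CPM. Mature neutrophils, which made up 51.2% and 46.7% of the cells, had 189 and 257 CPM. The map of levels shows that the leading gene differed between groups of classes and, in some classes, between the libraries.

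**Figure D1:**
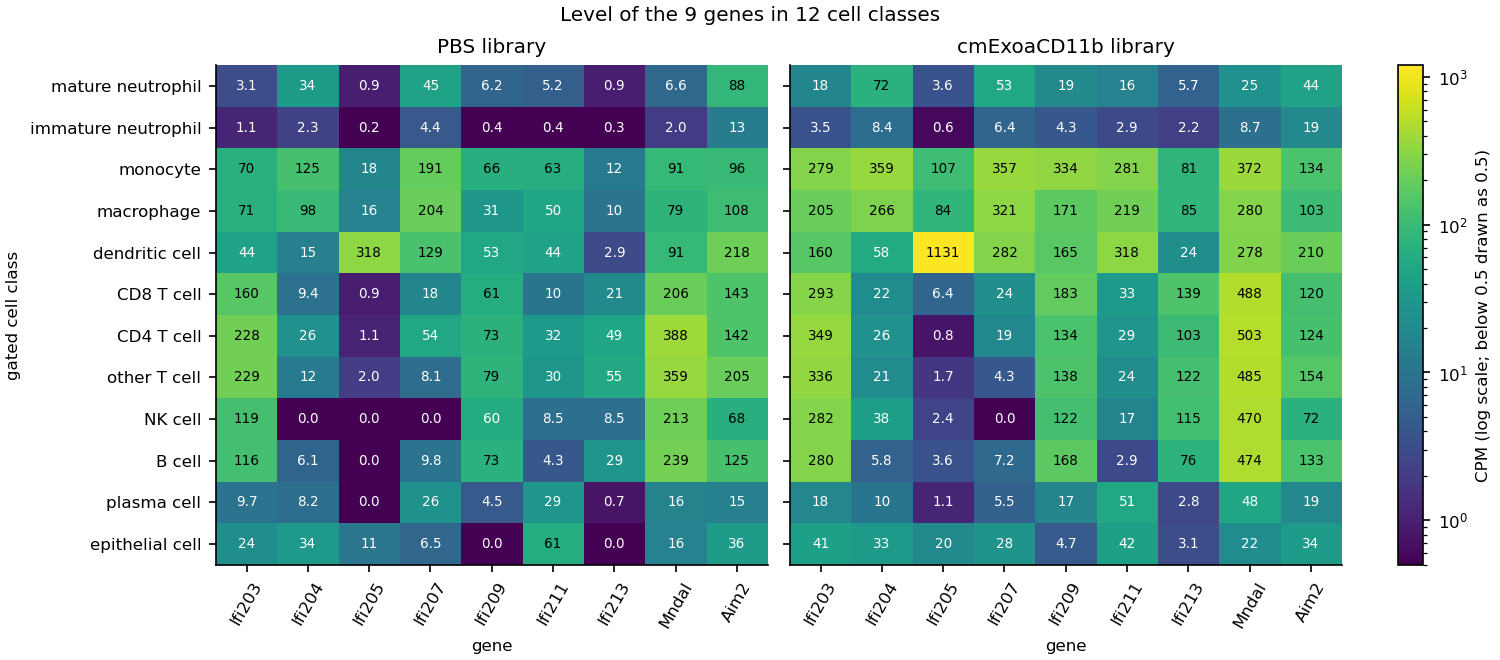
CPM of each of the 9 genes (columns) in the 12 gated classes (rows) of the PBS library (left) and the cmExoaCD11b library (right), on a logarithmic colour scale with the value printed in each cell. Ifi205 reached 1131 CPM in cmExoaCD11b dendritic cells, Mndal and Ifi203 were high in T, NK and B cells, and immature neutrophils were low for every gene.

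T, NK and B cells used Mndal first, and Ifi203 came second except in PBS B cells, where Aim2 (20.8%) and Ifi203 (19.3%) had overlapping intervals. The intervals of Ifi203 and Aim2 also overlapped in PBS CD8 T, other T and NK cells. In PBS NK cells, with 56 UMIs of the family, those of Mndal and Ifi203 overlapped as well. Mndal, named for its likeness to human MNDA, made up 32.8% to 44.6% of the family's UMIs in CD8 T, CD4 T, other T, NK and B cells of either library, and Ifi203 19.3% to 27.1%. In CD4 T cells Mndal was at 388 CPM in PBS (interval 348 to 429.8) and 503 CPM in cmExoaCD11b (465 to 544), and in B cells at 239 CPM in PBS (interval 216 to 264) and 474 CPM in cmExoaCD11b (438 to 512). The 3 T cell classes, NK cells and B cells of the cmExoaCD11b library held Mndal at 470.0 to 503 CPM, neighbours that did not differ beyond counting error. Ifi204, Ifi205, Ifi207 and Ifi211 were low in these cells, with Ifi205 at no more than 6.41 CPM.

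Dendritic cells used Ifi205. It stood at 318 CPM in PBS (interval 260.5 to 383) and 1131 CPM in cmExoaCD11b (1049 to 1217), and its share of the family was 34.7% (29.4 to 40.3%) in PBS and 43.1% (40.7 to 45.5%) in cmExoaCD11b. The next class, monocytes, had 17.8 and 107 CPM, so that the intervals did not overlap in either library, and the lymphocyte and neutrophil classes had from 0 to 6.41 CPM. The 108 and 707 UMIs behind these dendritic values came from 31 and 58 cells. Among the dendritic markers, Clec9a and Xcr1, of cross-presenting dendritic cells, were at 109 and 64.7 CPM in PBS and 286 and 133 CPM in cmExoaCD11b, and Flt3, a growth factor receptor of the lineage, was at 191 and 318 CPM. Ccr7, of migrating ones, was at 132 and 136 CPM. The other 4 of the 8 markers had lower values in cmExoaCD11b, with Cd209a at 44.1 and 22.4 CPM, Zbtb46 at 173 and 131 CPM, Fscn1 at 115 and 97.6 CPM and Cacnb3 at 61.7 and 39.99 CPM. The markers thus went in both directions within the class, and their part in the ratios was not tested.

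Monocytes and macrophages spread their UMIs over most members. Ifi207 led in both classes of the PBS library, with 26.1% of the family in monocytes and 30.5% in macrophages, followed by Ifi204 with 17.0% in monocytes and Aim2 with 16.2% in macrophages. In cmExoaCD11b monocytes the lead was shared, since Mndal (16.1%), Ifi204 (15.6%), Ifi207 (15.5%) and Ifi209 (14.5%) had nearly equal parts. Ifi204 was highest in these 2 classes, at 125 and 359 CPM in monocytes and 98.1 and 266 CPM in macrophages, against 34.2 and 71.9 CPM in mature neutrophils. NK cells were at 0 CPM of Ifi204 in PBS (0 of 117190 UMIs, for which the upper limit of the interval is 31.5 CPM) and at 38.2 CPM in cmExoaCD11b.

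Neutrophils used Aim2 in the PBS library. Its share of the family's UMIs in mature neutrophils was 46.2% (44.5 to 47.9%) in PBS and 17.3% (16.4 to 18.2%) in cmExoaCD11b, and in immature ones it was 54.1% and 34.4%. The immature shares rest on low levels, with Aim2 at 13.1 and 19.4 CPM and most other members at or under the assumed free-RNA amounts given below. In cmExoaCD11b mature neutrophils Ifi204 led with 28.0%. Mndal, the leading gene of lymphocytes, and Ifi203 were at 6.64 and 3.12 CPM in PBS mature neutrophils, below 206 and 159.5 CPM in CD8 T cells of the same library. Ifi211 had the highest share in plasma cells, with 26.5% and 29.4%, and in epithelial cells, with 32.4% and 18.5%. Its lead was within counting error over Ifi207 (23.8%) in PBS plasma cells, Mndal (27.8%) in cmExoaCD11b plasma cells and Ifi203 (17.8%) in cmExoaCD11b epithelial cells. B cells had 4.29 and 2.88 CPM of it against 29.1 and 50.9 CPM in plasma cells. In the plot of shares the grey Mndal band marks out the lymphocytes and the green Ifi205 band the dendritic cells. The olive Aim2 band marks out the PBS neutrophils and the immature neutrophils of cmExoaCD11b. That is a share of the family and not a high level. In PBS, mature neutrophils ranked 8 of the 12 classes for Aim2, at 87.6 CPM, and immature ones ranked 12. Dendritic cells were at 218 CPM and empty droplets at 85.8 CPM. By share, Aim2 came after Ifi204 and Ifi207 (20.7%) in cmExoaCD11b mature neutrophils.

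**Figure D2:**
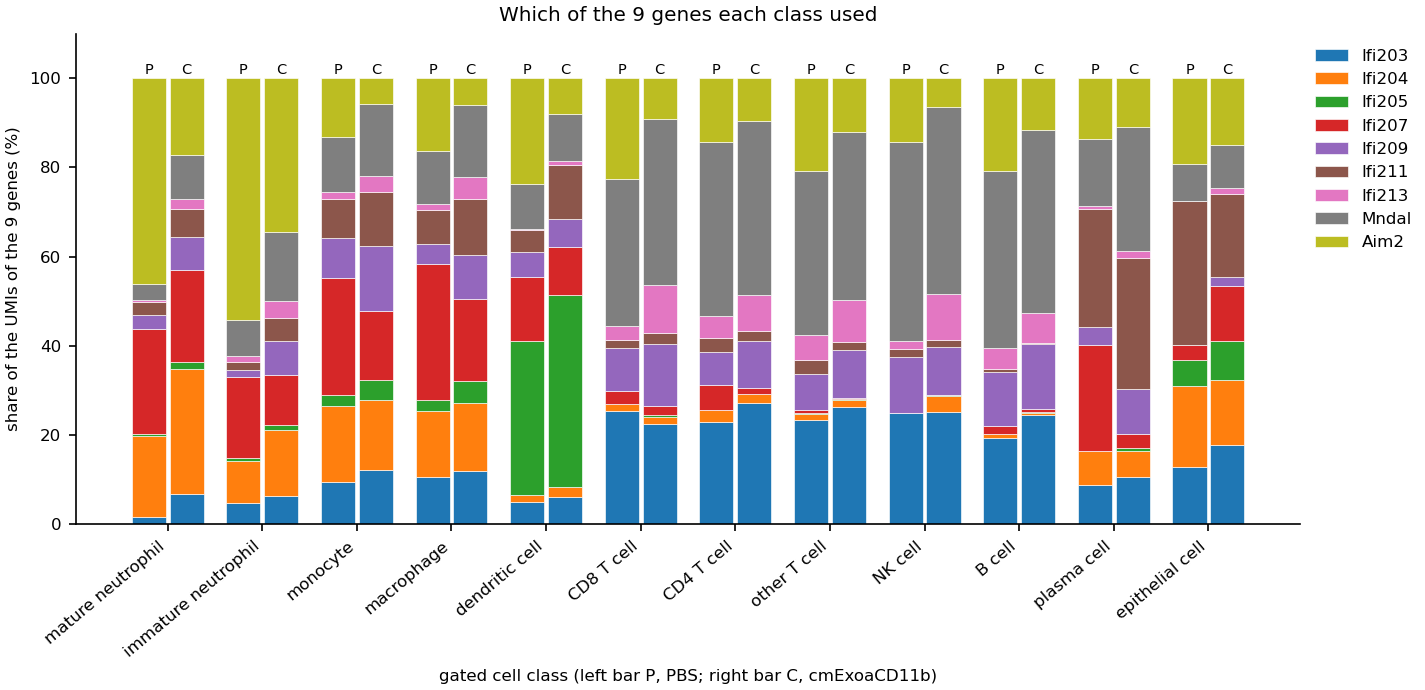
Share of each gene among the UMIs of the 9 genes (vertical axis, %) in each gated class, with the PBS library as the left bar and the cmExoaCD11b library as the right bar. The Aim2 share was smaller in the cmExoaCD11b bar in all 12 classes, most of all in mature neutrophils, where it went from 46.2% to 17.3%.

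Free RNA sets a floor under these levels. Droplets with at most 100 UMIs, taken as empty, held the 9 genes at 354 CPM in PBS and 674 CPM in cmExoaCD11b, and their profile differed between the libraries in the same direction as the cells, with Mndal at 48.1 and 154 CPM, Ifi213 at 7.48 and 38.7 CPM and Aim2 at 85.8 and 62.4 CPM. If 7% of a cell's UMIs were free RNA, this would add 3.37 CPM of Mndal and 2.28 CPM of Ifi203 to PBS cells and 10.8 and 5.37 CPM to cmExoaCD11b cells. Immature neutrophils held 1.99 and 8.73 CPM of Mndal and 1.12 and 3.51 CPM of Ifi203, at or under these amounts. The same held for every other member in PBS immature neutrophils except Aim2, and in cmExoaCD11b for all except Aim2, Ifi204 and Ifi207. The 7% is an assumed share, not an estimate from these data. In PBS immature neutrophils Ifi209 and Ifi211 were each at 0.399 CPM (interval 0.129 to 0.930). These levels lie below the 1.57 and 1.51 CPM that 7% would add, so that share may be too high for these cells. How much of the low values is free RNA was not tested.

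The comparison of the libraries asked how far each class differed in these genes after cmExoaCD11b. A gene was counted as higher or lower when its ratio was at least 2 or at most 0.5, among genes with at least 50 UMIs in the class over both libraries.

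In monocytes all 9 genes had enough UMIs, and 7 were at least 2-fold higher and 0 at least 2-fold lower in cmExoaCD11b, where 3.62% of the genes tested in this class were higher. The family went from 732 to 2304 CPM, a ratio of 3.15 (3.01 to 3.30). Ifi213 differed most, at 11.9 CPM in PBS (interval 8.32 to 16.5) and 81.4 CPM in cmExoaCD11b (73.4 to 90.1), a ratio of 6.85 (4.86 to 9.94). Ifi205, at 17.8 and 107 CPM, had a ratio of 5.97 (4.50 to 8.07), and Ifi209, at 66.4 and 334 CPM, one of 5.03 (4.34 to 5.86). Ratios of Ifi211, Mndal, Ifi203 and Ifi204 lay between 2.88 and 4.46. Ifi207 and Aim2 stayed under 2-fold, at 1.87 (1.70 to 2.05) and 1.39 (1.21 to 1.61). The median ratio of the 9 genes was 4.08, beside 1.06 for all genes tested. The 8 gate markers of monocytes summed to 5538 and 7743 CPM. Plac8 was at 1943 and 3809 CPM, Ms4a6c at 495 and 1028 CPM and Ly6c2 at 649 and 940 CPM. Ccr2, Vcan and F13a1 were also higher in cmExoaCD11b. Fn1, at 1207 and 490 CPM, and Cx3cr1, at 27.4 and 24.4 CPM, were lower. The 8 markers of mature neutrophils summed to 8219 and 9658 CPM in the class. The part of these differences in the ratios was not tested.

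Macrophages gave the same 7 genes out of 9, where 4.08% of tested genes were higher. The family was at 667 CPM in PBS and 1735 CPM in cmExoaCD11b (ratio 2.60, 2.45 to 2.76), Ifi213 at 10.0 and 85.0 CPM (ratio 8.49, 5.89 to 12.4), Ifi209 at 30.7 and 171 CPM (ratio 5.58, 4.45 to 6.999) and Mndal at 79.1 and 280.1 CPM (ratio 3.54, 3.02 to 4.14). Ifi207 was under 2-fold at 1.58 (1.39 to 1.79), and Aim2 was level at 108 and 103 CPM, a ratio of 0.951 (0.762 to 1.18). Ifi205, among the 7, was at a ratio of 5.30, but at 1.34 with cells thinned to 1000 UMIs. The thinned ratio rests on only 7 of 314 PBS and 3 of 88 cmExoaCD11b cells with Ifi205. The macrophage class itself was smaller in cmExoaCD11b, with 95 cells against 322. The summed level of its 8 gate markers was 23429 CPM in PBS and 12129 CPM in cmExoaCD11b, mostly through Apoe at 15601 and 6247 CPM, and the part of this change in the ratios was not tested. In cells without an Arg1 UMI, a gene of suppressive macrophages, the family ratio was 2.78 (2.44 to 3.18) and in cells with one 2.47 (2.31 to 2.64), a split added once the data were known. The family was higher in cmExoaCD11b in both sets. Cells with Arg1 were 78.6% of PBS and 56.8% of cmExoaCD11b macrophages. Median depths were 5222 and 3084 UMIs without Arg1, from 69 and 41 cells. With Arg1 they were 15875 and 11037.5 UMIs, from 253 and 54 cells. The part of Arg1 and of depth in the ratios was not tested.

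Dendritic cells had 7 genes with enough UMIs, of which 6 were higher, beside 6.91% of tested genes. Aim2, at 218 and 209.5 CPM, was the exception, with a ratio of 0.963 (0.719 to 1.299). Ifi205 was 3.56 times as high in cmExoaCD11b at the levels given above, and Ifi211, which shares much of its 3' end, was at 44.1 and 318 CPM, a ratio of 7.22 (4.27 to 13.1). Ifi207 passed 2-fold here at 2.18 (1.56 to 3.101), whereas with cells thinned to 1000 UMIs its ratio was 1.010. The thinned ratio rests on only 6 of 31 PBS and 10 of 57 cmExoaCD11b cells with Ifi207. When any UMI of a marker counted in the gate, Mndal went from 3.05 to 1.39 and Ifi209 from 3.11 to 1.90, both under 2-fold. That gate left 10 PBS and 15 cmExoaCD11b dendritic cells, fewer than the 30 per library set for a compared class.

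In mature neutrophils 7 of 9 genes were again higher, beside 4.95% of tested genes, but the family ratio was only 1.35 (1.299 to 1.41). The 8 genes without Aim2 went from 102 to 212 CPM (ratio 2.08, 1.98 to 2.20). Ifi213 and Ifi203 had the largest ratios from low levels, at 0.948 and 5.71 CPM (ratio 6.02, 3.63 to 10.6) and 3.12 and 17.5 CPM (ratio 5.61, 4.24 to 7.55). At a free-RNA share of 7%, free RNA would add 0.523 and 2.71 CPM of Ifi213 and 2.28 and 5.37 CPM of Ifi203. It would add 0.607 and 1.96 CPM of Ifi205, which was at 0.948 and 3.58 CPM. With free RNA subtracted, 7 of 9 genes were at least 2-fold higher. Ifi204, at 34.2 and 71.9 CPM (ratio 2.10, 1.91 to 2.31), had the largest difference in CPM among the genes that were higher, and its ratio was 1.99 when any UMI of a marker counted in the gate. Mndal was at 6.64 and 25.4 CPM and Ifi211 at 5.24 and 15.7 CPM, ratios of 3.82 and 2.999.

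Immature neutrophils had 7 genes with enough UMIs and 5 of them higher, Ifi203, Ifi204, Ifi209, Ifi211 and Mndal, where 3.6% of tested genes were higher. All were at most 8.73 CPM and, apart from Ifi204, at or under the amounts that the assumed 7% of free RNA would add. The median gene of this class was itself shifted by 0.26 on the log2 scale, that of NK cells by 0.18 and that of plasma cells by 0.13, and the shift was under 0.10 in the other 9 classes. Ifi204 was at 2.31 and 8.38 CPM, beside 3.24 and 6.89 CPM that 7% of free RNA would add, and its ratio went from 3.62 to 1.84 when any UMI of a marker counted in the gate.

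CD8 T cells had 8 genes with enough UMIs and 5 higher, beside 3.78% of tested genes. Ifi213 stood out, at 20.6 CPM in PBS (interval 12.9 to 31.3) and 139 CPM in cmExoaCD11b (123 to 157), a ratio of 6.75 (4.37 to 10.97), followed by Ifi211, at 10.3 and 32.6 CPM, and Ifi209, at 61.0 and 183 CPM (ratio 2.996, 2.29 to 3.97). Mndal was at 206 and 488 CPM (ratio 2.37, 2.04 to 2.75), and Ifi203 was under 2-fold at 1.84 (1.54 to 2.19). Ifi204 was at 9.38 and 21.9 CPM (ratio 2.33, 1.15 to 5.23), but its ratio was 1.012, and that of Mndal 1.97, with cells thinned to 1000 UMIs. After thinning, only 2 of 151 PBS and 5 of 373 cmExoaCD11b cells held Ifi204, too few to read its thinned ratio. Markers of myeloid cells differed in this class as well, with all 8 of each list detected in both libraries. The 8 of immature neutrophils summed to 585 and 2587 CPM, those of mature neutrophils to 684 and 1439 CPM and those of monocytes to 954 and 1876 CPM, whereas those of macrophages summed to 510 and 290.1 CPM. Their part in the ratios of Ifi204, Ifi211 and the other members was not tested.

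CD4 T cells differed less. Of 8 genes with enough UMIs, 1 was higher, Ifi213 at 48.6 and 103 CPM (ratio 2.13, 1.51 to 3.06), beside 2.95% of tested genes, though at 1.20 with cells thinned to 1000 UMIs, and 1 was lower, Ifi207 at 54.0 and 18.7 CPM (ratio 0.346, 0.203 to 0.573), beside 2.75%. After thinning, 9 of 147 PBS and 21 of 236 cmExoaCD11b CD4 T cells held Ifi213. Mndal, already high in PBS, had a ratio of 1.298 (1.14 to 1.48), and the family one of 1.297 (1.20 to 1.41) against 2.08 (1.91 to 2.27) in CD8 T cells, intervals that did not overlap, though the difference between the classes was not tested. Macrophage markers were lower in the class as well. The 8 macrophage markers summed to 962 CPM in PBS CD4 T cells, with 8 of 8 detected, and to 49.8 CPM in cmExoaCD11b, with 7 of 8 detected and Ms4a7 at 0. In CD8 T cells these markers were also lower, at 510 and 290.1 CPM, while Ifi207 was at 17.8 and 24.0 CPM (ratio 1.35, 0.773 to 2.44). The part of macrophage RNA in the Ifi207 ratio was not tested.

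Other T cells had 5 genes with enough UMIs and 1 higher, again Ifi213, at 54.7 and 122 CPM (ratio 2.22, 1.46 to 3.49), beside 2.76% of tested genes. The family ratio there was 1.31 (1.18 to 1.46), from 147 PBS and 341 cmExoaCD11b cells. It was 0.858 with the ranked-UMI cut alone and reversed in no other setting. That cut left 20 PBS and 21 cmExoaCD11b other T cells, fewer than the 30 per library set for a compared class. NK cells had 3 genes with enough UMIs, Ifi203, Ifi209 and Mndal, and all 3 were higher, beside 11.4% of tested genes, with 56 and 468 UMIs of the family in the class. Ifi203 was at 119 and 282 CPM (ratio 2.36, 1.35 to 4.44) and Mndal at 213 and 470.0 CPM (ratio 2.20, 1.45 to 3.49), while Ifi209 was at 59.7 and 122 CPM (ratio 2.04, 0.920 to 5.32), an interval that holds 1, from 7 UMIs in PBS. Other settings took Ifi203 under 2-fold in 1 case (1.81), Ifi209 in 5 (down to 1.38) and Mndal in 4 (down to 1.296). 1 of those for Mndal, the ranked-UMI cut alone (1.48), left 4 PBS and 8 cmExoaCD11b NK cells. The PBS value of NK cells rests on 30 cells, whose 8 macrophage markers summed to 2321 CPM, with Adgre1 and Ms4a7 at 0, against 115 CPM in cmExoaCD11b, with Mrc1 at 0, and their part in these ratios was not tested. B cells had 5 genes with enough UMIs and 3 higher, Ifi203, Ifi209 and Ifi213, beside 1.62% of tested genes, and Mndal just under 2-fold at 1.99 (1.75 to 2.26). Ifi209 and Ifi213 were both at 1.94 with cells thinned to 1000 UMIs. After thinning, 23 of 268 PBS and 44 of 277 cmExoaCD11b B cells held Ifi209, and 9 and 19 held Ifi213.

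Plasma cells had 6 genes with enough UMIs, 2 of them higher (Ifi209 and Mndal, beside 7.26% of tested genes) and 1 lower (Ifi207, beside 6.12%). Mndal was at 16.4 and 48.1 CPM (ratio 2.93, 1.87 to 4.79), and Ifi211 at 29.1 and 50.9 CPM (ratio 1.75, 1.23 to 2.54). Ifi207 was at 26.1 and 5.53 CPM (ratio 0.212, 0.116 to 0.377), and its ratio was 0.928 when any UMI of a marker counted in the gate. The macrophage markers in the class summed to 294 CPM in PBS, with Mrc1 at 0, and to 41.7 CPM in cmExoaCD11b. Their part in the Ifi207 ratio was not tested. Epithelial cells, a class that can hold tumor cells and normal ducts, had 4 genes with enough UMIs and 0 higher, beside 1.66% of tested genes. Their family ratio was 1.21 (0.971 to 1.50), from 48 and 33 cells, an interval that holds 1 and lies below 2.

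**Figure D3:**
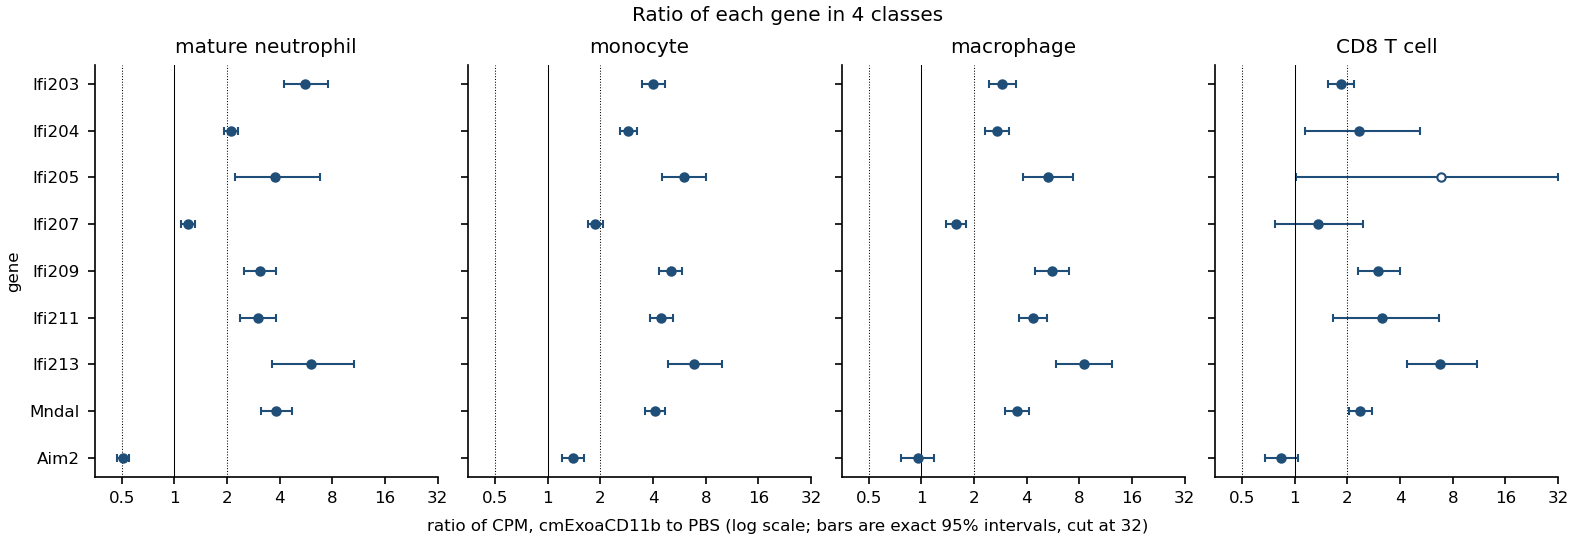
Ratio of CPM in cmExoaCD11b to PBS (horizontal axis, logarithmic) for each gene in mature neutrophils, monocytes, macrophages and CD8 T cells, with exact 95% intervals, an open point for fewer than 50 UMIs, a solid line at 1 and dotted lines at 0.5 and 2. Ifi213 lay between 6.02 and 8.49 in all 4 classes, whereas Aim2 lay between 0.507 and 1.39 and Ifi207 between 1.20 and 1.87.

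Aim2 had a lower ratio than the other 8 genes summed in each of the 12 classes. The intervals overlapped in NK, plasma and epithelial cells, and NK cells had under 50 UMIs of Aim2. Ifi207, among the 8, was also under 2-fold in mature neutrophils, monocytes, macrophages and CD8 T cells, but at 2.18 in dendritic cells. In CD4 T and plasma cells the Ifi207 ratio lay below that of Aim2. At the reported settings Aim2 was at least 2-fold higher in no class. It passed 2-fold in monocytes with cells thinned to 1000 UMIs (2.22) and in immature neutrophils with free RNA subtracted (2.13). In mature neutrophils it was at 87.6 CPM in PBS (interval 83.3 to 92.1) and 44.4 CPM in cmExoaCD11b (41.8 to 47.1), a ratio of 0.507 (0.469 to 0.548), while the other 8 genes together had 2.08 (1.98 to 2.20). Its ratio there was under 0.5 with every barcode from 500 UMIs (0.499) and with free RNA subtracted (0.490). In monocytes the ratios were 1.39 (1.21 to 1.61) and 3.41 (3.25 to 3.58), in dendritic cells 0.963 (0.719 to 1.299) and 3.47 (3.02 to 3.99), and in CD8 T cells 0.839 (0.680 to 1.04) and 2.44 (2.22 to 2.69). Only monocytes and immature neutrophils had an Aim2 interval wholly above 1, and mature neutrophils and other T cells (ratio 0.752, 0.586 to 0.970) had one wholly below it. Among lymphocytes and monocytes of the cmExoaCD11b library, Aim2 was within 71.6 to 154 CPM, and its highest level in either library was in dendritic cells, at 218 and 209.5 CPM, in PBS not beyond counting error of other T cells.

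**Figure D4:**
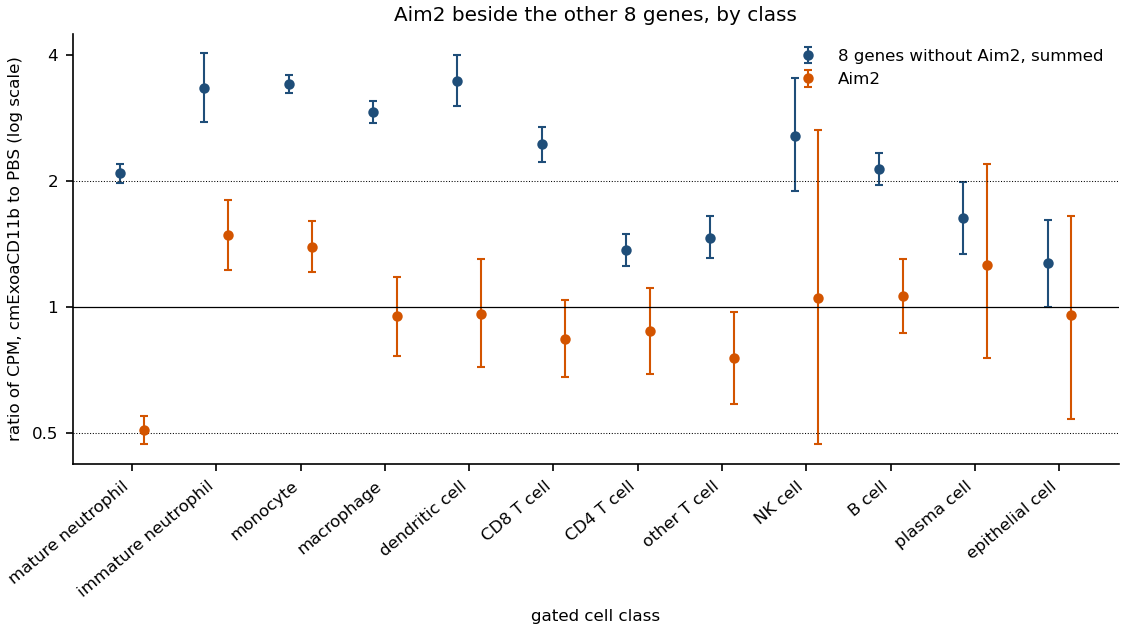
Ratio of CPM in cmExoaCD11b to PBS (vertical axis, logarithmic) of Aim2 and of the other 8 genes summed, in each of the 12 gated classes, with exact 95% intervals, a solid line at 1 and dotted lines at 0.5 and 2. The Aim2 point lay under that of the other 8 genes in every class, with the widest gap in mature neutrophils (0.507 against 2.08). The intervals overlapped in NK, plasma and epithelial cells.

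Other neutrophil genes differed within the mature class as well. The 8 markers of immature neutrophils summed to 32863 CPM in PBS mature neutrophils and to 52124 CPM in cmExoaCD11b, and Retnlg, a gene of circulating mature neutrophils, was detected in 69.2% and 87.9% of cells. In cells without a Retnlg UMI, Aim2 was at 179 and 176 CPM, a ratio of 0.983 (0.821 to 1.17). In cells with one it was at 68.0 and 39.3 CPM, a ratio of 0.578 (0.528 to 0.632). Aim2 was thus higher in cells without Retnlg in both libraries, and the interval of its ratio lay below 1 among cells with Retnlg and held 1 among cells without. This split, too, was added once the data were known, and Retnlg is itself abundant in neutrophils and hence in free RNA. Median depths were 2819 and 2186 UMIs without Retnlg, from 1073 and 397 cells. With Retnlg they were 3746.5 and 4655.5 UMIs, from 2416 and 2894 cells. The part of depth in these values was not tested. The family as a whole had ratios of 2.10 (1.91 to 2.30) and 1.58 (1.51 to 1.66) in the 2 sets of cells, both above the 1.35 of the class. Among cells without Retnlg, Ifi207 was at 102 and 275 CPM (ratio 2.69, 2.28 to 3.18) and Ifi204 at 54.8 and 168 CPM (ratio 3.07, 2.46 to 3.83), and these were the leading genes there beside Aim2.

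Cells were also divided by whether they held a UMI of Isg15, a ubiquitin-like protein that interferon induces strongly, in order to see how the members vary within a class. In mature neutrophils, cells with Isg15 were 32.5% of PBS and 69.9% of cmExoaCD11b. Within PBS, Ifi204 was at 75.2 CPM in cells with Isg15 and 13.9 CPM in cells without, Ifi203 at 6.73 and 1.34 CPM, and Ifi211 at 12.3 and 1.75 CPM, whereas Aim2 was at 87.3 and 87.8 CPM. The 8 genes other than Aim2 were all higher in PBS neutrophils with Isg15 than in those without, and Aim2 was level. Between the libraries, the family ratio was 1.02 (0.961 to 1.07) in cells with Isg15 and 1.02 (0.941 to 1.11) in cells without, both lower than the 1.35 of the class. This sum joined genes that went in opposite directions. Aim2 had ratios of 0.479 (0.428 to 0.536) and 0.609 (0.534 to 0.693), whereas Mndal had 2.54 (1.98 to 3.30) and 2.06 (1.34 to 3.15), Ifi203 3.16 (2.28 to 4.49) and 3.49 (1.81 to 6.97), Ifi209 1.77 (1.39 to 2.28) and 1.90 (1.12 to 3.19), and Ifi211 1.55 (1.20 to 2.02) and 2.46 (1.31 to 4.64), with and without Isg15. Ifi204 was at 1.15 (1.03 to 1.28) and 1.61 (1.27 to 2.04), and Ifi207 at 0.760 (0.680 to 0.852) and 1.44 (1.22 to 1.70). Median depths were 3409 and 4414 UMIs in cells with Isg15 and 3335 and 3196 UMIs in cells without.

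In monocytes, cells with Isg15 were 35.3% of PBS and 72.9% of cmExoaCD11b, and the family was at 913 and 2619 CPM with Isg15 (ratio 2.87, 2.70 to 3.05) and 598 and 1045 CPM without (ratio 1.75, 1.60 to 1.91), so that it was higher in cmExoaCD11b on both sides of the split. Mndal was at 121 and 422 CPM with Isg15 and 69.0 and 171 CPM without. In CD8 T cells the family ratio was 2.17 (1.93 to 2.44) with Isg15 and 1.62 (1.40 to 1.86) without, and Ifi213 was higher in both, at 29.0 and 152 CPM (ratio 5.24, 3.101 to 9.54) and 12.8 and 109 CPM (ratio 8.56, 3.91 to 22.2). In CD4 T cells without Isg15, Mndal was at 406 and 375 CPM (ratio 0.922, 0.690 to 1.23) and the family at a ratio of 1.06 (0.881 to 1.27), an interval that holds 1. A cell without an Isg15 UMI may still hold its mRNA, since detection depends on depth. Median depths of monocytes were 9135 and 4234 UMIs without Isg15 and 12673 and 12256 UMIs with it. CD8 T cells had 4530.5 and 3215 UMIs without and 5827.5 and 4278 UMIs with Isg15. In these 2 classes, cells without Isg15 were thus shallower in cmExoaCD11b than in PBS. The part of this in the ratios was not tested.

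**Figure D5:**
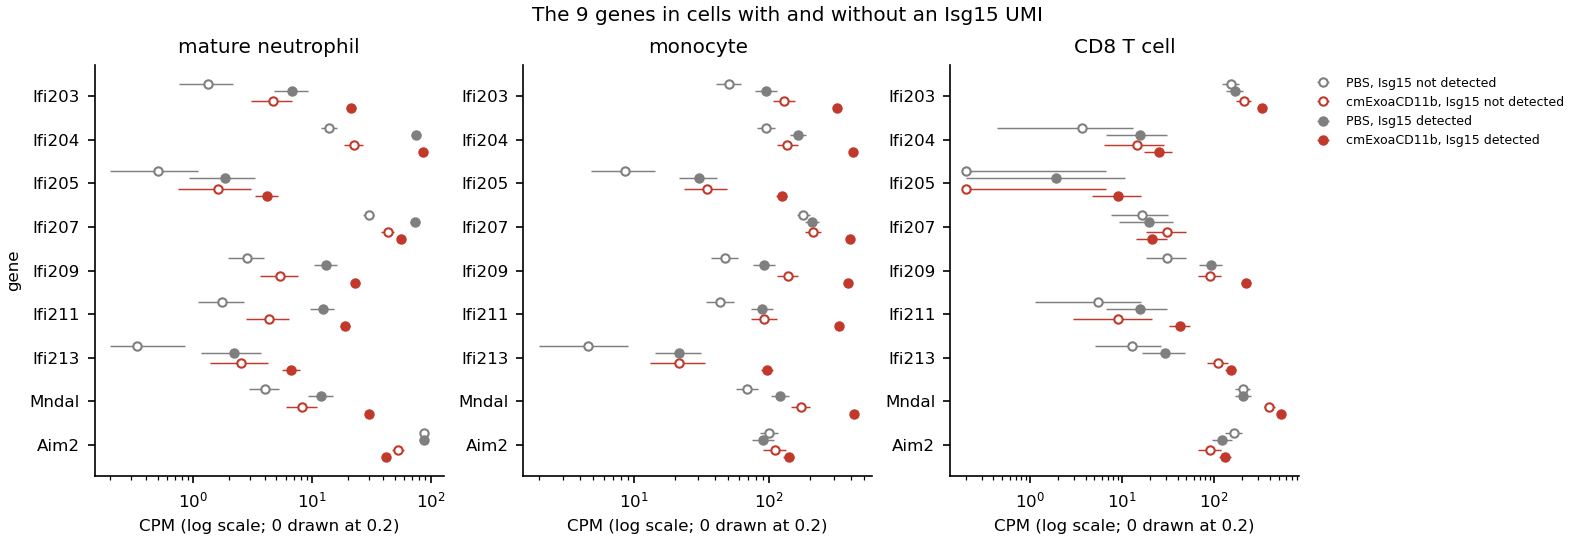
CPM (horizontal axis, logarithmic) of the 9 genes in cells with (filled) and without (open) an Isg15 UMI, for mature neutrophils, monocytes and CD8 T cells of the PBS (grey) and cmExoaCD11b (red) libraries, with exact Poisson 95% intervals. In mature neutrophils, Aim2 was at 87.3 and 87.8 CPM on either side of the split in PBS and at 41.8 and 53.5 CPM in cmExoaCD11b, while the other genes lay further right in cells with Isg15.

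To see whether more cells held the genes, each cell was thinned to 1000 UMIs and shallower cells were left out, which removed 0 to 79 cells of a class in each library. At this depth, at least 1 of the 9 genes was found in 49.2% and 85.5% of PBS and cmExoaCD11b monocytes, and at least 2 in 17.8% and 66.3%. In macrophages at least 2 members were found in 16.9% and 40.9% of cells, in dendritic cells in 22.6% and 52.6%, in CD8 T cells in 17.2% and 29.0%, in mature neutrophils in 3.08% and 6.01% and in immature neutrophils in 0% and 0.407%. In monocytes the share of cells with at least 2 members differed more between the libraries than the share with at least 1. A higher summed level at equal depth raises both shares, so the contrast is not a separate result on members found together.

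For single members, Mndal was found in 9.75% (6.28 to 14.3%) of PBS and 36.9% (31.8 to 42.3%) of cmExoaCD11b monocytes at this depth (46.5% and 81.4% of cells at full depth), and in 0.170% (0.00431 to 0.944%) of PBS and 1.09% (0.470 to 2.13%) of cmExoaCD11b immature neutrophils. Ifi205 was found in 19.4% (7.45 to 37.5%) of PBS and 47.4% (34.0 to 61.0%) of cmExoaCD11b dendritic cells (41.9% and 63.8% at full depth), against at most 9.01% of any other class. Ifi213 was found in 3.97% (1.47 to 8.45%) of PBS and 17.7% (14.0 to 22.0%) of cmExoaCD11b CD8 T cells (13.2% and 38.2% at full depth). Aim2 was found in 10.4% (9.41 to 11.5%) of PBS and 7.94% (7.03 to 8.93%) of cmExoaCD11b mature neutrophils (27.9% and 21.1% at full depth) and in 1.19% (0.480 to 2.44%) of PBS and 1.90% (1.04 to 3.17%) of cmExoaCD11b immature neutrophils, whose median depths before thinning were 18671 and 17918 UMIs against 3355 and 3955 for mature ones.

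The other genes of the family mostly followed the same direction where they could be read. Ifi206, which shares 3' windows with Ifi213, was at 11.2 and 72.4 CPM in monocytes (ratio 6.45, 4.52 to 9.47) and 34.7 and 112 CPM in CD8 T cells (ratio 3.22, 2.26 to 4.69). Ifi208 was at 30.03 and 64.1 CPM (ratio 2.13, 1.44 to 3.26) and Ifi214 at 38.5 and 91.4 CPM (ratio 2.37, 1.68 to 3.43) in CD8 T cells. Thus 3 of the 3 tested there were at least 2-fold higher, beside 3.78% of all genes tested. Of Ifi202b, Ifi206, Ifi208 and Ifi214, 2 of 2 tested were higher in mature neutrophils (beside 4.95% of all genes tested), monocytes (3.62%) and B cells (1.62%). In macrophages 1 of 1 was (4.08%). In CD4 T cells (2.95%) and other T cells (2.76%) 2 of 3 were, Ifi206 and Ifi214 but not Ifi208. Ifi202b had at most 3 UMIs in mature neutrophils, monocytes and macrophages.

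Genes of inflammasomes, a list that holds the adaptor, caspases and substrates and also Nlrp3, Nlrc4, Naip5, Nlrp1b and Mefv, which belong to other inflammasomes than that of Aim2, mostly stayed within 2-fold. Of the 12 listed, 12 were tested in mature neutrophils, monocytes and macrophages. In mature neutrophils Casp1, the protease of the complex, was just past 2-fold at 18.0 and 36.2 CPM (ratio 2.01, 1.77 to 2.29) and Nlrp1b, a sensor of its own inflammasome, was lower at 10.1 and 4.22 CPM (ratio 0.418, 0.326 to 0.535). In monocytes Il18 was higher at 20.1 and 50.8 CPM (ratio 2.52, 1.89 to 3.40), and in macrophages none passed, with medians of 1.04, 1.39 and 1.28 over the list in the 3 classes. Pycard, the adaptor that Aim2 binds, was at 113 and 83.5 CPM in mature neutrophils (ratio 0.739, 0.695 to 0.786) and 446 and 423 CPM in monocytes (ratio 0.948, 0.884 to 1.02). Il1b, a substrate of caspase-1, was at 4103 and 2755 CPM in mature neutrophils (ratio 0.671, 0.665 to 0.679), 1274 and 699 CPM in monocytes (ratio 0.549, 0.524 to 0.575) and 1291 and 230.3 CPM in dendritic cells (ratio 0.178, 0.147 to 0.216), the last counted as lower.

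Of 9 genes of cytosolic DNA sensing, 8 were tested in mature neutrophils, monocytes and macrophages. Irf7, the interferon regulatory factor of the feedback loop, and Zbp1, a sensor of Z-form nucleic acid, were higher in all 3, with Irf7 at 41.3 and 159 CPM (ratio 3.85, 3.18 to 4.70) and Zbp1 at 55.8 and 189 CPM (ratio 3.38, 2.87 to 4.01) in monocytes. Cgas, the enzyme that makes cGAMP, was also higher in monocytes, at 18.2 and 36.7 CPM (ratio 2.02, 1.48 to 2.79). Tmem173, which encodes STING, was at 38.3 and 62.4 CPM in monocytes (ratio 1.63, 1.31 to 2.04) and at 1.67 and 2.21 CPM in mature neutrophils, and Tbk1 and Irf3 stayed within 2-fold in all 3 classes, with list medians of 1.24, 1.46 and 1.23. Among 10 interferon-stimulated genes, 9 were tested in these classes, of which 7 were higher in mature neutrophils and 8 in monocytes and macrophages, with medians of 2.15, 3.69 and 4.05 beside 1.007, 1.06 and 1.06 over all genes tested there. Dendritic cells were mixed, with Irf7, Oasl1, Rsad2 and Usp18 higher but Ifit1, at 532 and 176 CPM (ratio 0.331, 0.258 to 0.421), and Cxcl10, at 885 and 368 CPM (ratio 0.416, 0.349 to 0.495), lower in the same cells in which Ifi205 was 3.56 times as high.

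Likeness of pattern was measured as Pearson's r of log2(CPM + 1) over 24 points, the 12 classes in both libraries, which share free RNA and depth within a library. Mndal and Ifi203 were most alike of any pair of the 9, with an r of 0.977, followed by Mndal with Ifi209 (0.930) and with Ifi213 (0.924), while Ifi204 and Ifi203 had 0.247 and Ifi207 and Ifi203 0.083. Outside the 9, and among 9317 genes, the nearest to Mndal was Fyn (0.944), a kinase of lymphocyte signalling, to Ifi213 its relative Ifi206 (0.938), to Ifi204 Oasl2 (0.842), an interferon-stimulated gene, to Ifi205 Cxcl9 (0.854), a chemokine induced by interferon gamma, and to Ifi211 Il18 (0.903). Nearest to Aim2 were Camk1d (0.915), Ncoa3 (0.899) and Hivep2 (0.897), to Ifi207 Cd302 (0.897), to Ifi209 Phf11b (0.948) and to Ifi203 Ubn2 (0.945).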

How the data were processed

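The authors deposited raw UMI counts per gene and barcode, neither normalized nor filtered, with empty droplets included. The file headers name Cell Ranger 7.1.0, the methods another version, and no genome build is given in the sources used here. The libraries held 67143628 (PBS) and 81288480 (cmExoaCD11b) UMIs, of which the kept cells held 50352363 and 62415788. Groups came from the treatment label, with 1 library of 3 pooled mice each, so that no test between treatments was run.

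Barcodes were called as cells above a ranked-UMI cut (UMIs at percentile 99 of the top 3000 barcodes, over 10) or, from 500 UMIs, by a multinomial test against empty droplets (10000 simulations, false discovery rate 0.01). Cells with fewer than 200 genes or over 20% mitochondrial UMIs were dropped, and the highest Scrublet scores were removed at 0.8% per 1000 cells, since Scrublet's automatic threshold marked 0 cells. A marker counted for a class when its UMIs had a Poisson tail under 0.01 at a free-RNA share of 10%. UMIs were summed per class and library and scaled to CPM. A UMI counts 1 molecule, so levels were not divided by length. Python 3.11.15, numpy 2.4.6, scipy 1.17.1, pandas 2.3.3 and scanpy 1.11.5 were used, and the intervals were checked on simulated counts. All 9 members, the lists named in the text and, for each member, the genes of highest r among those with at least 500 UMIs were described. The members, lists and class rules were chosen with earlier results of these data known. Alternatives to 9 processing choices were set, and the splits by Retnlg and Arg1 were added later.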

Additional observations from a re-analysis of the deposited data

Results flagged for a closer look

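Aim2 had ratios on opposite sides of 1 in the 2 neutrophil classes, 1.48 in immature neutrophils and 0.507 in mature neutrophils, with intervals that did not meet. The difference between the classes was not tested, and with any UMI of a marker counted in the gate the ratio of immature neutrophils was 0.820. Ifi207 likewise had ratios of 2.18 in dendritic cells and 0.212 in plasma cells. That difference was not tested either, and it rests on 31 PBS dendritic cells and on 55 Ifi207 UMIs in plasma cells. The macrophage markers of plasma cells were lower in cmExoaCD11b as well, and their part in the Ifi207 ratio was not tested.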

How the results depend on the processing

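Ratios were recomputed under up to 9 other settings chosen at the outset, those of macrophages also by the Arg1 split, and that of Aim2 in mature neutrophils also by the Retnlg split. Of 110 recomputed family ratios, 81 moved by less than the counting interval of the reported value, 28 moved further, among them epithelial cells to below 1 in 2 settings, and 1 reversed. The reversed one was that of other T cells with the ranked-UMI cut alone, 0.858, from 20 PBS and 21 cmExoaCD11b cells. There Ifi203 (0.900) and Ifi209 (0.721) reversed as well. Other classes also fell under 30 cells in some settings, among them dendritic cells, with 10 and 15 when any UMI of a marker counted. With the ranked-UMI cut alone the family ratio was 1.84 in mature neutrophils, 1.84 in CD8 T cells and 1.17 in CD4 T cells. With every barcode from 500 UMIs it was 1.76 in B cells. Without removal of doublets it was 1.51 in mature neutrophils and 1.94 in plasma cells. With at least 3 markers and a lead of 2 it was 3.37 in monocytes, 2.85 in macrophages, 3.31 in dendritic cells and 1.52 in epithelial cells. With any UMI of a marker counted it was 1.41 in mature and 1.68 in immature neutrophils, 3.599 in monocytes, 2.99 in macrophages and 0.953 in epithelial cells, and in immature neutrophils Ifi207 (0.985) and Aim2 (0.820) reversed. With free RNA subtracted it was 1.27 in mature neutrophils. With the median gene ratio set to 1 it was 1.95 in immature neutrophils, 2.96 in monocytes and 2.45 in macrophages. With cells thinned to 1000 UMIs it was 1.45 in mature neutrophils, 3.55 in monocytes, 2.33 in macrophages, 1.78 in CD8 T cells, 1.54 in other T cells, 1.61 in NK cells, 1.57 in B cells and 0.513 in epithelial cells. The thinned epithelial ratio rests on 44 PBS and 33 cmExoaCD11b cells, of which only 15.9% and 15.2% held any of the 9 genes. In macrophages without Arg1 the family ratio was 2.78. The cause of these shifts was not tested.

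Of single genes, 644 ratios of 726 moved by less than their counting interval. The number of genes at least 2-fold higher lay between 7 and 9 in monocytes, 6 and 7 in macrophages, 6 and 7 in mature neutrophils, 4 and 6 in dendritic cells, 2 and 6 in CD8 T cells, 1 and 4 in B cells, 1 and 3 in NK cells, 1 and 5 in immature neutrophils, 1 and 2 in CD4 T cells, 0 and 1 in epithelial cells, and 0 and 3 in plasma cells over these settings. Not every gene kept a value in each setting. In immature neutrophils with free RNA subtracted only 1 gene had a value, Aim2 (2.13), and it was the 1 counted. With thinning, the counts were 2 of 6 genes with a value in CD8 T cells and 0 of 4 in plasma cells. The share of all tested genes past 2-fold was taken at the reported settings only. Aim2 was under 0.5 in CD8 T (0.452) and plasma cells (0.374) with thinning and in other T cells (0.478) with the ranked-UMI cut alone. The thinned plasma cell value rests on 2 of 52 PBS and 2 of 139 cmExoaCD11b cells with Aim2, too few to read. Other T cells numbered 20 and 21 under that cut. The limit of 50 UMIs was applied at the reported settings only. The lower call of Ifi207 in CD4 T cells was lost with the ranked-UMI cut alone (0.595) and without removal of doublets (0.503). Aim2 in mature neutrophils lay between 0.490 and 0.983, the highest in cells without Retnlg. No paired analysis was possible because each treatment has 1 library of different mice. Depth limits NK cells, in which 6 of the 9 genes had under 50 UMIs, and epithelial cells, in which 5 had.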
